A study of Mus musculus with 8 samples.

Results

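Transcripts of 10 genes of the chromosomal passenger complex and the spindle assembly checkpoint were measured in mouse neural stem cells given ethanol. The genes were the passenger complex genes Birc5, Aurkb, Cdca8 and Incenp, the related kinase gene Aurka, and the checkpoint genes Bub1, Bub1b, Ttk, Mad2l1 and Bub3. They were found through the platform annotation: 26 of the 45101 probe sets carried exactly 1 of these symbols, out of 18193 genes with such a probe set. Incenp and Bub3 had 5 probe sets each, Birc5 and Mad2l1 1 each, and the other genes 2 or 3.

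The cells were NS5, a cultured neural stem cell line from mouse brain at stage E11.5, and 8 Affymetrix arrays were hybridised, 2 for each of 4 groups. The groups were Ethanol and FGF2, FGF2, Ethanol and TGF-beta1, and TGF-beta1, with ethanol at 400 mg/dl and each treatment lasting 48 h. All groups had first been plated with FGF2 and EGF for 24 h and kept free of growth factors for 4 h, so no group was held without a growth factor during treatment. The labels give each factor at 10 ng per ul, a unit that could not be checked. NS5 is 1 line, and nothing says that the replicates came from separate cultures, so the p-values measure the spread between these samples, which may be technical. In RNA of whole cultures, fewer dividing cells and less RNA per dividing cell cannot be told apart.

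The passenger complex sits on centromeres until anaphase and then moves to the middle of the spindle. The kinase Aurora B (Aurkb) is its enzyme, Incenp its scaffold and activator, and survivin (Birc5) and borealin (Cdca8) hold it on chromatin. It releases faulty attachments of chromosomes to microtubules and later helps to divide the cytoplasm. The checkpoint delays anaphase while kinetochores remain unattached: the kinase Mps1 (Ttk) starts the signal, Bub1, BubR1 (Bub1b) and Bub3 gather at the kinetochore, and Mad2 (Mad2l1) with BubR1 blocks Cdc20, the activator of the anaphase-promoting complex. Aurora A (Aurka) works at spindle poles and is no subunit of the complex. Most of these transcripts peak in G2 and mitosis in dividing cells, and neural stem cells of the embryonic brain divide rapidly.

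Genes with such timing are often controlled through the cell cycle homology region, a short promoter element bound by the MuvB complexes, together with CCAAT boxes bound by NF-Y. Promoter windows of RefSeq (GRCm38.p6, 250 bases before to 50 after an annotated start) were found for 8 of the 10 genes. Windows of 5 genes are shown because they span the responses described below: Cdca8, Bub1 and Ttk hold both elements and fell, Bub3 (the first of its annotated starts) holds both and did not pass the test, and Birc5 holds neither and fell. Each runs from 90 bases before the start to 30 after it, and capitals mark TTTGAA or TTCGAA and CCAAT on either strand.
Cdca8, chr4:124936888-124937007, minus strand: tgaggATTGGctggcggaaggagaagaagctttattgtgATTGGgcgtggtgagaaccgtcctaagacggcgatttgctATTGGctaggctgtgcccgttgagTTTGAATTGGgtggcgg
Bub1, chr2:127831830-127831949, minus strand: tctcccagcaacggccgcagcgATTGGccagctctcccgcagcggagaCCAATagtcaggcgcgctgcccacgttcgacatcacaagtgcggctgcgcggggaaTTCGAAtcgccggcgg
Ttk, chr9:83834599-83834718, plus strand: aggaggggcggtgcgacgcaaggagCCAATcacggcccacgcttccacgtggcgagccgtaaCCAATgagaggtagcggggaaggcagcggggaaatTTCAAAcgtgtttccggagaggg
Bub3, chr7:131560280-131560399, plus strand: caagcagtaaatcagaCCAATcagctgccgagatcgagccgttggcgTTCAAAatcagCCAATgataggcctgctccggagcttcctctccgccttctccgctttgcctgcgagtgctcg
Birc5, chr11:117849147-117849266, plus strand: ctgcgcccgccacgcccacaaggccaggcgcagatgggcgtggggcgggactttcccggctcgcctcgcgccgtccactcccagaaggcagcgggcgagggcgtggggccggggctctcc

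In the full windows, TTTGAA or TTCGAA was found in 6 of 8 genes (Aurka, Bub1, Bub1b, Bub3, Cdca8 and Ttk), against 19.2% of all 32851 windows. The same 6 genes held CCAAT, present in 37.4% of all windows, and 7.52% of all windows held both. A further pattern searched for, that of E2F sites, was found in 0 of 8 genes, against 9.57% of all windows. A gene was counted if any of its windows held a match, so counts of genes and shares of windows are not the same measure. In Cdca8 the copy of TTTGAA at positions 14 to 19 after the start shares its last base with a reversed CCAAT. These are matches of letters only: a match is no proof of a site, and a window without one may be bound elsewhere.

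Before the results, the growth factor labels were set against Fn1 (fibronectin) and Pmepa1, which TGF-beta signalling raises in many cells. Fn1 had signals of 3015 and 4109 in TGF-beta1, against 120 and 139 in FGF2. On the replicate 1 arrays with ethanol it stood the other way round, at 124 for the label Ethanol and TGF-beta1 and 6828 for Ethanol and FGF2. On replicate 2 it was 8226 for Ethanol and TGF-beta1 and 116 for Ethanol and FGF2. Pmepa1 had the same pattern, and both replicate 1 arrays are called doubted here. Every array stayed in the group of its label, and the comparisons and pathway list counts are given also without these arrays. Single probe sets, the genes with like profiles, and the counts and sums of markers are given with all arrays.

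The 2% trimmed mean signal was 500 on every array and the median signal ran from 50.6 to 86.5. Of the neural stem and radial glia markers, 8 of 10 lay above the signal filter, Nes, Sox2, Vim and Pax6 among them, and 0 of 6 endothelial and 1 of 6 microglial markers did (highest signals 88.2 and 152). Of 6 markers of mesenchyme and smooth muscle 3 did (Acta2, Tagln and Col1a1, highest signal 1068), and 1 of 6 of the oligodendrocyte lineage (Pdgfra). Acta2 and Tagln were highest on Ethanol and TGF-beta1 replicate 2, at 751 and 449. No marker was at 0. All 6 astrocyte and 5 of 8 neuronal markers also lay above it, so the culture was not free of transcripts of differentiated cells. With 2 arrays in a group, precision is limited by their number.

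In the average over both growth factors 9 of the 10 transcripts were lower with ethanol by the test described below. Bub3 also lay below 0 but did not pass. The estimates of the 9 ran from 5.16-fold to 11.0-fold lower on the fitted scale. The median log2 fold change of the 10 was −2.82, against 0.03 for all 10916 genes tested. The fitted scale is log2(signal + 23.66), whose constant is the signal at the 25th percentile, and it understates changes of weak signals. All 10 genes passed the filter on mean level over the 8 arrays (the 40th percentile of genes). Aurkb, Aurka and Bub1b passed it through the arrays without ethanol, as their means over the arrays with ethanol alone lie under the cut. For each gene 1 probe set was used, and limma gave p-values adjusted over all genes by the Benjamini-Hochberg method. By that test 1.8% of all genes fell in this average, 0.183% rose and 1.99% passed in either direction. With no signal filter 9 of the 10 passed, and 204 of 18193 genes passed in either direction.

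**Figure D1:**
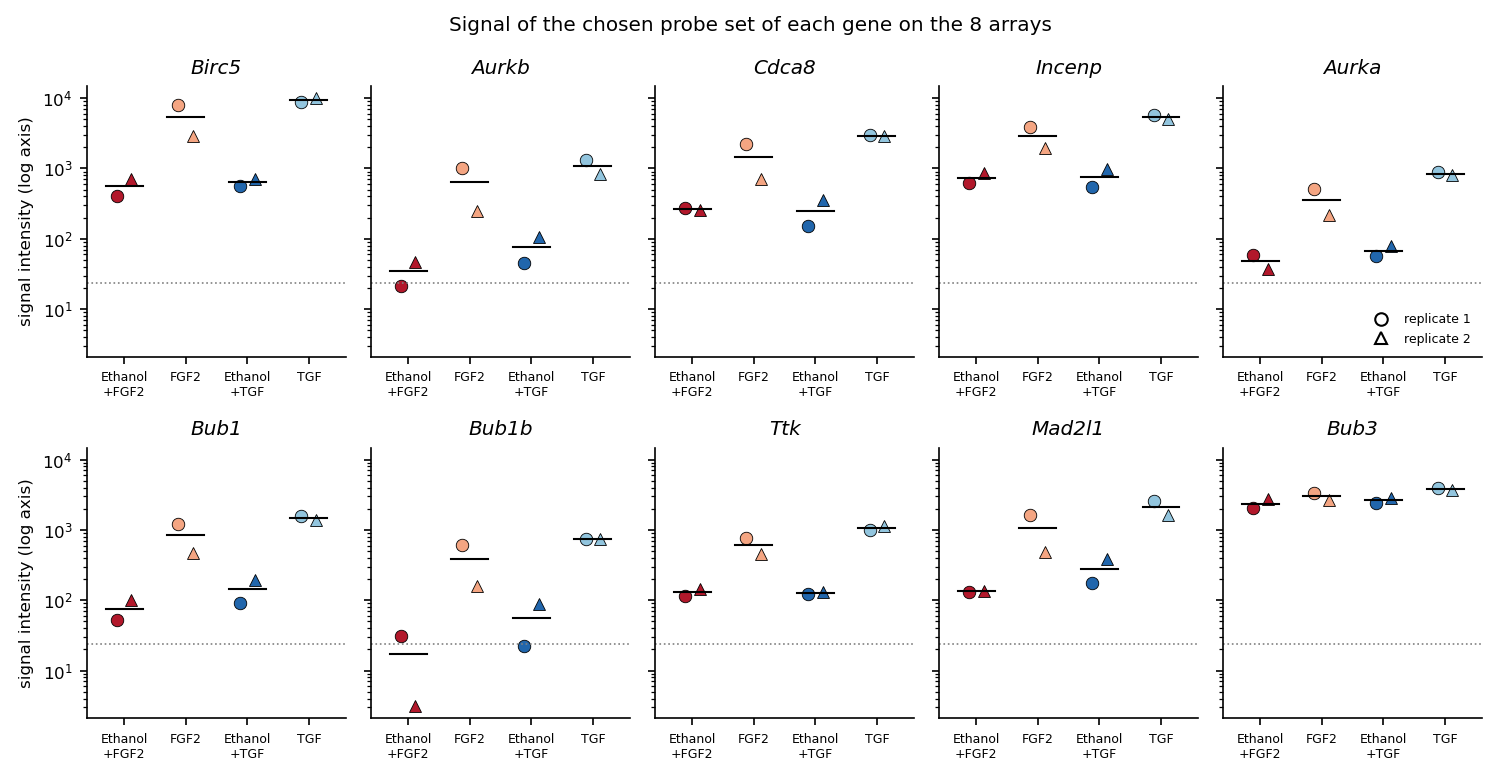
Signal intensity (log axis) of the chosen probe set of each gene on the 8 arrays, by group; circles are replicate 1, triangles replicate 2, bars group means and the dotted line the added constant of 23.66. For 9 genes all 4 arrays with ethanol lie below all 4 without, and for Bub3 they overlap.

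All 4 genes of the passenger complex fell. The signal of Birc5 was 408 and 716 in Ethanol and FGF2, against 7901 and 2919 in FGF2, and 563 and 705 under Ethanol and TGF-beta1, against 8706 and 9924 under TGF-beta1. The groups with and without ethanol were far apart, and the lowest array without ethanol was still 4.08 times the highest with it. The log2 fold change was −3.46 ± 0.31 (moderated SE, adjusted p = 0.00247), the 18th lowest of all genes tested. Birc5 lies on chromosome 11 from 117849237 to 117855743 (GRCm38.p6, as for all positions).

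Aurkb (chromosome 11, 69045624 to 69051664) had 21.5 and 47.1 in Ethanol and FGF2, against 1027 and 246 in FGF2. In Ethanol and TGF-beta1 it had 45.2 and 106, against 1326 and 820 in TGF-beta1. All arrays with ethanol lay below those without, and 1 of them lay under the constant. The log2 fold change of −3.37 ± 0.44 (adjusted p = 0.00515) therefore depends on the constant in size. The mean over 4 arrays was 54.9 ± 35.9 with ethanol and 855 ± 456 without (SD), a ratio of 15.6.

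Cdca8 (chromosome 4, 124918465 to 124936917) had signals of 270 and 255 in Ethanol and FGF2, against 2234 and 697 in FGF2, and 150 and 353 under Ethanol and TGF-beta1, against 2959 and 2899 under TGF-beta1. Its log2 fold change was −2.84 ± 0.37 (adjusted p = 0.00477). The scaffold gene Incenp (chromosome 19, 9872295 to 9899489) had 612 and 870 in Ethanol and FGF2, against 3937 and 1931 in FGF2, and 536 and 996 under Ethanol and TGF-beta1, against 5748 and 5115 under TGF-beta1. Both fell without overlap, and the log2 fold change of Incenp was −2.37 ± 0.28 (adjusted p = 0.00301), the 85th lowest of all genes. Its probe set is of a class in which some probes can also match other sequences, and it had no accession in the annotation.

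Aurka (chromosome 2, 172356190 to 172370886) had signals of 59.5 and 37.3 in Ethanol and FGF2, against 502 and 216 in FGF2. In Ethanol and TGF-beta1 it had 56.2 and 78.0, against 889 and 798 in TGF-beta1. The ranges did not meet, and the log2 fold change was −2.79 ± 0.30 (adjusted p = 0.00258). Both Aurora kinase transcripts thus fell, though the proteins act at different places on the spindle.

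Among the checkpoint genes, the paralogues Bub1, a kinase, and Bub1b both fell. Bub1 (chromosome 2, 127800197 to 127831859) had 51.7 and 99.5 in Ethanol and FGF2, against 1203 and 475 in FGF2, and 90.9 and 195 under Ethanol and TGF-beta1, against 1601 and 1376 under TGF-beta1. Its log2 fold change was −3.14 ± 0.35 (adjusted p = 0.00266). Bub1b (chromosome 2, 118598202 to 118641592) had 30.8 and 3.14 in Ethanol and FGF2, against 607 and 162 in FGF2, and 22.4 and 88.4 under Ethanol and TGF-beta1, against 748 and 737 under TGF-beta1. Its arrays with ethanol were all below those without, with 2 of the 4 under the constant, on which the size of its fall (−3.29 ± 0.46, adjusted p = 0.0067) depends.

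Ttk (chromosome 9, 83834651 to 83872390), the kinase at the start of the checkpoint, had 116 and 143 in Ethanol and FGF2, against 777 and 461 in FGF2, and 123 and 133 under Ethanol and TGF-beta1, against 1003 and 1131 under TGF-beta1. It was even across the arrays with ethanol, with a log2 fold change of −2.44 ± 0.22 (adjusted p = 0.00247). Mad2l1 (chromosome 6, 66535221 to 66541107) had 130 and 137 in Ethanol and FGF2, against 1646 and 486 in FGF2, and 176 and 381 under Ethanol and TGF-beta1, against 2564 and 1605 under TGF-beta1. Of the 9 it had the narrowest gap, the lowest array without ethanol being 1.27 times the highest with it (−2.70 ± 0.39, adjusted p = 0.00762).

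Bub3 (chromosome 7, 131560367 to 131571895), the adaptor that carries Bub1 and BubR1 to the kinetochore and that is also found outside mitosis, differed from its partners. It had 2023 and 2717 in Ethanol and FGF2, against 3394 and 2691 in FGF2, and 2389 and 2877 under Ethanol and TGF-beta1, against 3961 and 3684 under TGF-beta1. By this chosen probe set the ranges with and without ethanol overlapped through the array labelled FGF2 replicate 2. The second strong probe set of Bub3 did not overlap, at 930 to 1023 with ethanol, against 1223 to 1688 without. The log2 fold change of the chosen probe set was −0.45 ± 0.17, with a 95% interval from −0.84 to −0.06 before adjustment. It did not pass the test (adjusted p = 0.363). None of the estimates of the other 9 genes lay in this interval.

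By the chosen probe sets all 4 arrays with ethanol lay below all 4 without for 9 of the 10 genes, as they did for 4.45% of all genes tested. With each array left out in turn, 8 or 9 of the 10 passed, with 0.824% to 1.9% of all genes falling, and the loss was Mad2l1 without the array labelled TGF-beta1 replicate 1 (adjusted p = 0.051). Without both doubted arrays the log2 fold changes of the 9 ran from −3.22 to −2.03, but by limma 0 genes of 10916 passed (1150 at an unadjusted p under 0.05) and the adjusted p of the 9 ran from 0.0674 to 0.138.

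**Figure D2:**
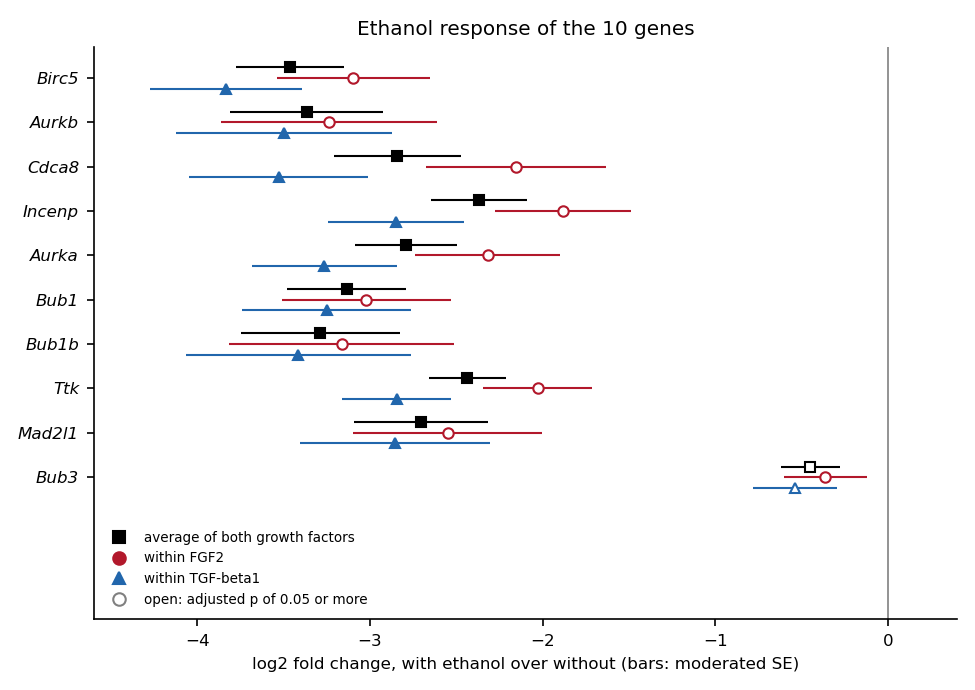
Log2 fold change of each gene with ethanol over without, in the average of both growth factors (squares), within FGF2 (circles) and within TGF-beta1 (triangles), with moderated SE; open symbols did not pass an adjusted p of 0.05. In the average 9 genes lie between −3.46 and −2.37 and Bub3 at −0.45.

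Within TGF-beta1 the same 9 genes fell and 0 rose, where 1.12% of all genes fell, 0.0733% rose and 1.19% passed in either direction. The log2 fold changes of the 9 lay between −3.83 ± 0.44 (Birc5) and −2.85 ± 0.32 (Ttk), with an adjusted p from 0.0195 to 0.0495. Bub3 had −0.54 ± 0.24 and did not pass (adjusted p = 0.534). Each call rests on few arrays: with replicate 1 of Ethanol and TGF-beta1, or either TGF-beta1 array, left out, limma called 0 of the 10 genes and 0 of all genes (663, 521 and 807 at an unadjusted p under 0.05). The count was also 0 without both doubted arrays (940 genes unadjusted) and with the replicate number as a block (1026 unadjusted, smallest adjusted p = 0.058).

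Within FGF2 no gene passed. The log2 fold changes of the same 9 genes ran from −3.24 ± 0.63 for Aurkb to −1.88 ± 0.39 for Incenp, and 0 of the 10 passed, as did 0% of all genes by limma (906 genes and 9 of the 10 at an unadjusted p under 0.05). Birc5, Bub1 and Ttk came nearest, at an adjusted p of 0.0601 each. Without FGF2 replicate 1, 0 of the 10 passed and the 9 ran from −2.38 to −1.33 (adjusted p from 0.224 to 0.513), with Cdca8 at −1.33. Without the array labelled FGF2 replicate 2, 8 of the 10 fell, with 0.687% of all genes falling, and the 9 ran from −4.22 to −2.39 (adjusted p from 0.00966 to 0.0523). Both are fits in which the lone FGF2 array is assumed to vary like the other groups. Without both doubted arrays 0 passed (612 genes at an unadjusted p under 0.05). By other scalings and filters 2 of the 10 passed within FGF2: Birc5 and Ttk after quantile normalization (0.266% of all genes fell), and Birc5 and Bub1 after median centring (0.275%) or with no signal filter (0.159%). The 3′/5′ signal ratio of the Gapdh control probes, which rises as RNA degrades, was 3.33 and 3.48 in Ethanol and FGF2, against 1.64 and 2.20 in FGF2, and its part in the result was not tested. The ratio of the actin control probes overlapped, at 3.57 and 4.20 in Ethanol and FGF2, against 2.35 and 3.61 in FGF2. Within TGF-beta1 both overlapped, Gapdh at 1.93 and 2.06 for Ethanol and TGF-beta1, against 1.70 and 2.20 for TGF-beta1, and actin at 2.78 and 3.07 with ethanol, against 2.36 and 3.03 without.

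The ethanol effect was not shown to differ between the growth factors for any of the 10 genes. All 10 differences (within TGF-beta1 minus within FGF2) lay below 0, from −1.37 for Cdca8 to −0.18 for Bub3, while 55.1% of all genes lay below 0. The adjusted p ran from 0.831 to 0.968, and 0% of all genes passed, with 0 of the 10 and 484 of all genes at an unadjusted p under 0.05. Without both doubted arrays the differences ran from −0.97 to 0.90 and 8 of the 10 lay below 0 (limma adjusted p = 1).

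The arrays without ethanol were not alike. By the chosen probe sets the array labelled FGF2 replicate 2 was the lowest of these 4 for 10 of 10 genes, as it was for 33.3% of all genes. In the 9 genes that fell it stood at 23.2% to 47.5% of the mean of the other 3 arrays, and Bub3 at 73.1%. In the second strong probe set of Bub3 this array was not the lowest, at 1433 against 1223 on FGF2 replicate 1. In TGF-beta1 against FGF2 without ethanol all 10 log2 fold changes lay above 0, from 0.34 ± 0.24 for Bub3 to 1.29 ± 0.42 for Aurka, as did 52.5% of all genes. None passed (adjusted p from 0.98 to 0.982, and 0% of all genes called by limma; 4 of the 10 and 542 of all genes at an unadjusted p under 0.05). Without FGF2 replicate 2 the other 9 genes ran from 0.02 to 0.72 (adjusted p = 0.999).

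Between the groups with ethanol the 10 log2 fold changes of Ethanol and TGF-beta1 over Ethanol and FGF2 ran from −0.16 to 0.91 and none passed (0% of all genes by limma; 0 of the 10 and 288 of all genes at an unadjusted p under 0.05). Each of these groups holds a doubted array, and without both the range was −0.09 to 2.06 (adjusted p from 0.972 to 1). Replicate 2 of Ethanol and TGF-beta1 was the highest of the 4 with ethanol for 8 of the 10 genes, against 21.4% of all genes. The exceptions were Birc5 and Ttk, which were highest on Ethanol and FGF2 replicate 2.

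Partner transcripts were then compared within each array, as the difference of their values of log2(signal + 23.66), for 6 pairs by an exact two-sided permutation test of 4 arrays with ethanol against 4 without. The smallest p this test can give is 0.0286, or 0.0429 as adjusted here over the 6 pairs. Bub1 and Bub1b both fell relative to Bub3. The log2 ratio of Bub1 to Bub3 was −4.76 and −4.48 in Ethanol and FGF2, against −1.48 and −2.45 in FGF2, and −4.40 and −3.73 under Ethanol and TGF-beta1, against −1.29 and −1.41 under TGF-beta1. It was lower on all 4 arrays with ethanol, by 2.68 on average (difference −2.68, exact p = 0.0286, adjusted p = 0.0429). The ratio of Bub1b to Bub3 had a difference of −2.84 with the same p-values. Without both doubted arrays these differences were −2.44 and −2.95, in a design of 2 arrays against 4 that cannot pass (exact permutation, adjusted p = 0.2). With a constant of 64 they were −2.32 and −2.11 (exact permutation, adjusted p = 0.0571).

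Inside the passenger complex Birc5 and Aurkb fell more than Incenp by the chosen probe sets. Each ratio rests on the chosen probe set of Incenp, of a class in which some probes can match other sequences. Unequal falls of transcripts and unequal responses of probe sets cannot be told apart. The log2 ratio of Birc5 to Incenp was −0.31 ± 0.28 with ethanol and 0.79 ± 0.22 without (SD, 4 arrays each), and the 2 sets of arrays did not overlap (difference −1.10, exact permutation p = 0.0286, adjusted p = 0.0429). That of Aurkb to Incenp was −3.37 ± 0.43 with ethanol and −2.37 ± 0.44 without, with the same p-values and no overlap, but with a constant of 64 the difference was −0.49 (exact permutation, adjusted p = 0.143), and that of Birc5 to Incenp −1.07 (adjusted p = 0.0571). That of Cdca8 to Incenp overlapped between the groups (difference −0.48, exact permutation p = 0.0857, adjusted p = 0.103). With all probe sets of a gene averaged it passed, with a difference of −2.04, and Birc5 to Incenp then had −2.54 (exact permutation, adjusted p = 0.0343 each). That mean takes in probe sets of Incenp near or under the constant, at −0.41 to −0.07, and brings Incenp to −0.92. Birc5 has 1 probe set, so these larger differences do not show unequal falls. The ratio of the 2 Aurora kinases, Aurkb to Aurka, also overlapped, at −0.13 ± 0.55 with ethanol and 0.44 ± 0.43 without (exact permutation, adjusted p = 0.171).

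**Figure D3:**
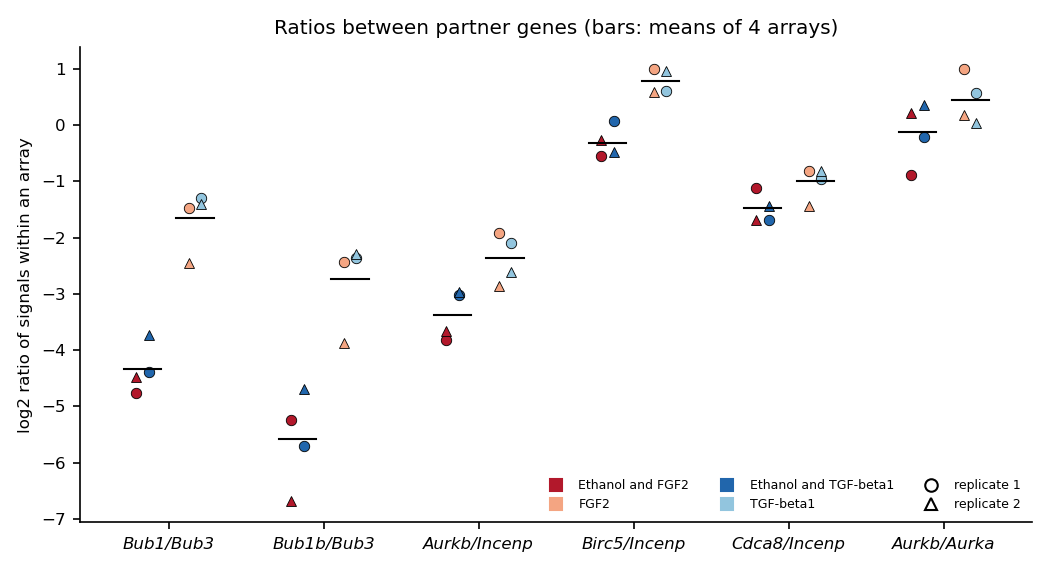
Log2 ratio of 2 genes within an array for 6 pairs, arrays with ethanol at the left of each pair and those without at the right; colours are groups, circles replicate 1, triangles replicate 2 and bars means of 4 arrays. Bub1/Bub3, Bub1b/Bub3, Aurkb/Incenp and Birc5/Incenp do not overlap between arrays with and without ethanol.

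All 26 probe sets were then fitted singly with no signal filter, a choice made after the data were seen. Of these 13 fell in the ethanol average, where 0.715% of all probe sets fell, and 0 rose. All 3 probe sets of Cdca8 fell (−3.16 to −2.84), as did both of Ttk (−2.44 and −1.76) and 2 of 3 of Bub1b. Of the 16 probe sets that were not chosen for a gene, 4 fell, and 12 had a signal under the constant on at least 1 array. Incenp rested on its chosen probe set: the next, without that class of probes, had −1.48 ± 0.31 and did not pass (adjusted p = 0.0595), and the other 3 lay between −0.41 and −0.07 at signals near or under the constant. With the mean of all its probe sets Incenp did not pass in the average (adjusted p = 0.0994).

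The second probe sets of Aurkb (−1.81 ± 0.40, adjusted p = 0.0794) and Bub1 (−1.34 ± 0.29, adjusted p = 0.0749) lay in the same direction without passing, while that of Aurka had 0.04 ± 0.35 (adjusted p = 0.989). With the mean of all probe sets, Aurka had −1.38 ± 0.24 and Bub1b −2.14 ± 0.33 in the average, over 1.5 times nearer to 0 than with the chosen probe set, and both still passed (limma adjusted p = 0.0228 and 0.0137). For Bub3 the 2 strong probe sets had close values, −0.45 ± 0.18 and −0.53 ± 0.17 (adjusted p = 0.511 and 0.312). Its 3 weak ones lay between −0.43 and 0.34, with no signal above 73.7. The chosen probe sets of Aurkb, Cdca8 and Bub3 are of a class shared by several transcripts, so signal of a related transcript cannot be told apart.

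**Figure D4:**
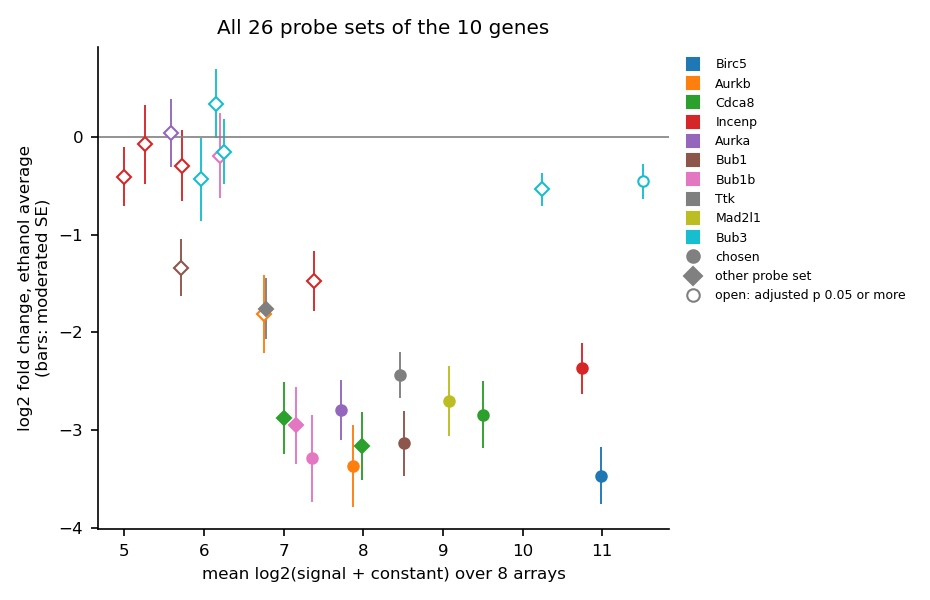
Log2 fold change in the ethanol average (moderated SE) of each of the 26 probe sets against its mean log2(signal + constant) over 8 arrays; circles are chosen probe sets, diamonds the others, and open symbols did not pass. Apart from the 2 strong probe sets of Bub3 (−0.45 and −0.53), those near 0 have low mean signals.

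Other genes of the pathway were read from 3 lists of 36 genes, of which 35 passed the signal filter: 21 fell in the ethanol average, 0 rose, and 33 lay below 0 (46% of all genes lay below 0). Without both doubted arrays 0 of the 35 passed by limma, as 0 of all genes did, with a smallest adjusted p of 0.0611. The list medians were then −1.96 for checkpoint partners, −2.34 for passenger complex partners and substrates and −1.25 for Aurora A partners. Of 14 checkpoint partners 9 fell, with a median of −2.10. The 4 with the largest falls were Nuf2 (−3.49 ± 0.36, adjusted p = 0.00247), Ndc80 and Spc25, subunits of the kinetochore complex that binds microtubules, and Cdc20 (−3.29 ± 0.45, adjusted p = 0.00577), the protein the checkpoint holds back. Cdc20 had 118 and 83.0 in Ethanol and FGF2, against 1918 and 441 in FGF2, and 91.0 and 251 under Ethanol and TGF-beta1, against 2361 and 2018 under TGF-beta1. Of the 2 probe sets of Spc25 1 fell. Trip13, which recycles Mad2, fell too (−2.16 ± 0.21).

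The other 5 checkpoint partners did not pass. Mad1l1, the anchor of Mad2 at the kinetochore, had 0.09 ± 0.25 (adjusted p = 0.934), and Zw10, which also acts in membrane traffic, had −0.19 ± 0.24 (adjusted p = 0.863). Knl1, the platform for Bub1 and Bub3, had −0.96 ± 0.24 (adjusted p = 0.109), and the kinesin gene Cenpe −1.74 ± 0.44 (adjusted p = 0.104). Mad2l1bp, whose protein takes Mad2 out of the checkpoint complex, had −0.14 ± 0.24 (adjusted p = 0.9).

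Of 12 partners and substrates of the passenger complex 11 were tested and 7 fell, with a median of −2.43. The largest falls were those of Kif23 (−3.21 ± 0.33) and Racgap1 (−3.11 ± 0.33), which form the centralspindlin complex, Kif2c (−3.01 ± 0.32), a microtubule depolymerase that Aurora B controls, and Sgo1 (−2.99 ± 0.38), which guards centromeric cohesion (adjusted p from 0.00247 to 0.00457). Of their probe sets, 1 of 3 fell for Kif23, 2 of 3 for Racgap1, 1 of 4 for Kif2c and both for Sgo1. Haspin, whose histone mark recruits the complex, had −1.21 ± 0.27 and did not pass (adjusted p = 0.0715).

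Of 10 Aurora A partners 5 fell, with a median of −1.29. They were Hmmr (−3.65 ± 0.44), Tpx2 (−3.57 ± 0.31), which activates Aurora A, Tacc3 (−2.90 ± 0.28), Plk1 (−2.58 ± 0.28) and Bora (−2.01 ± 0.28), which helps Aurora A to activate Plk1 (adjusted p from 0.00247 to 0.00689). Of the 4 probe sets of Tpx2 2 fell and 2 lay above 0, and of the 5 of Hmmr 3 fell. The centrosome genes Cep192, Nedd1 and Ckap5 lay between −0.49 and −0.10 and did not pass (adjusted p from 0.338 to 0.903).

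**Figure D5:**
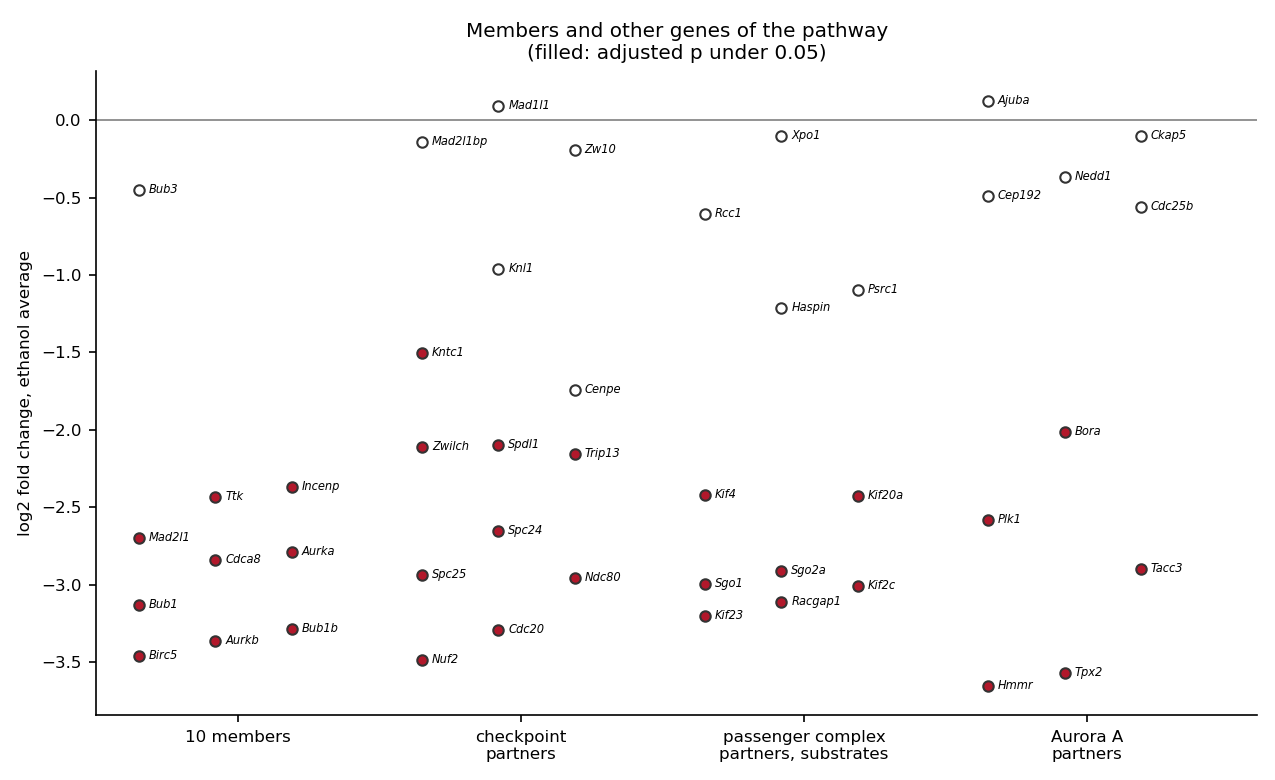
Log2 fold change in the ethanol average of the 10 members and of 35 other genes of the pathway in 3 lists; filled points passed an adjusted p of 0.05 by limma. Points within a list are spread sideways for reading only. Bub3 stands at −0.45, and Mad1l1, Mad2l1bp, Zw10, Xpo1, Ajuba and Ckap5 lie between −0.19 and 0.13.

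The genes outside the 10 whose log2 values followed the members' mean profile most closely over the 8 arrays were Myb, Cenpi, Gmnn, Shcbp1 and Kifc1 (Pearson r from 0.996 to 0.998, a description: the arrays fall into a group with and a group without ethanol, which all these genes share). Gmnn encodes geminin, an inhibitor of replication licensing, Cenpi a centromere protein and Kifc1 a spindle kinesin. Gmnn signals ran from 97.0 to 250 with ethanol and from 611 to 1986 without, and its log2 fold change was −2.90 ± 0.30 (adjusted p = 0.00247).

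Markers of differentiated neural cells moved beside these falls in part. The summed signal of 8 neuronal markers was 9473 to 12604 in Ethanol and FGF2, against 8331 to 11778 in FGF2, with overlap. Within TGF-beta1 it did not overlap, at 9534 to 14601 with ethanol, against 5514 to 7075 without. Map2 made up most of this sum, at 12179 (doubted array) and 8107 with ethanol, against 5331 and 6588 without. Map2 itself did not pass within TGF-beta1 (log2 fold change 0.74, limma adjusted p = 0.449). Of the 5 tested 1 rose in the ethanol average (Celf4, 2.76 ± 0.44, adjusted p = 0.013), and all 5 lay above 0, with a median of 1.56. Within TGF-beta1 Celf4 and Dcx rose, by 3.41 and 2.70 on the log2 scale (limma adjusted p = 0.0403 and 0.0488), but 1 of the 2 Ethanol and TGF-beta1 arrays is doubted. Celf4 had 846 on the doubted array and 447 on the other, against 14.9 and 69.9 in TGF-beta1. Dcx had 1013 on the doubted array and 413 on the other, against 56.5 and 109 in TGF-beta1. Without both doubted arrays the median of the 5 in the ethanol average was 1.34. The summed signal of 9 neural stem markers was 81106 to 86065 in Ethanol and TGF-beta1, against 64581 to 88532 in TGF-beta1, and 90012 to 104785 in Ethanol and FGF2, against 62472 to 118173 in FGF2. None of the 8 stem or 6 astrocyte markers tested passed, and the part of any of these markers in the falls was not tested.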

How the data were processed

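RNA of 8 samples was hybridised to Affymetrix arrays by the standard protocol with 1 cycle of amplification, per the labels. The deposited values are signal intensity on a linear scale, 1 value for each probe set and array, made by the authors with MAS5 and GCOS per the submitters' processing notes. Versions are not given in the sources used here. The equal trimmed means show scaling to 1 target, and no further normalization was applied.

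The 64 control probe sets, 932 with several symbols and 9160 with none were left out. The probe set with the highest mean log2(signal + 23.66) stood for a gene, and genes whose mean reached the 40th percentile (6.402) were tested. Limma 3.58.1 in R 4.3.3 fitted 4 group means to all 8 arrays (4 residual and 4.929 prior degrees of freedom, with a trend). The threshold was an adjusted p of 0.05, within each of 6 comparisons. The model was tested on simulated data. Exact permutation tests used scipy 1.17.1. Alternatives were other constants, filters, scalings, probe set rules and models, and arrays left out.

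The members, lists, tests and alternatives were chosen with earlier results of these data known. All 10 members are named. Of each pathway list up to 4 genes with the largest change past the threshold are named, and further genes were named after their values were seen.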

Additional observations from a re-analysis of the deposited data

How the results depend on the processing

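In the ethanol average 9 of the 10 genes passed with all arrays, 5 of 6 tested under a 60th percentile filter, 0 without both doubted arrays, and 8 to 9 with single arrays left out. Within FGF2 the count was 0, and it was 2 with no signal filter, quantile normalization or median centring, 1 with every probe set unfiltered, and 0 to 8 with single arrays left out. Within TGF-beta1 it was 9, and 4 under the 60th percentile filter or with the mean of all probe sets, 0 under the replicate block or without both doubted arrays, and 0 to 9 with single arrays left out. It was 0 in the other 3 comparisons in each setting run. Other than within TGF-beta1, the replicate block changed no count, with 9 in the average and 0 within FGF2. Within TGF-beta1 the count was also 7 with a constant of 16 and 6 with no trend. Of all genes limma then called 112 and 78. There it called 130 as reported, 75 under the 60th percentile filter and 85 with the mean of all probe sets. In the average it called 217 as reported and 119 under that filter. Within FGF2 it called 0 as reported, 29 with no signal filter or quantile normalization, and 32 with median centring. The labels do not say what same-numbered arrays share. Correlations of their deviations from the group mean ran from −0.44 (Ethanol and FGF2 with Ethanol and TGF-beta1) to 0.47 (FGF2 with TGF-beta1). Replicate 1 of FGF2 and of TGF-beta1 had median signals of 50.7 and 50.6, and replicate 2 had 86.5 and 80.7.

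With a constant of 64 the ratio differences of Bub1/Bub3, Bub1b/Bub3 and Birc5/Incenp were −2.32, −2.11 and −1.07 (exact permutation, adjusted p = 0.0571 each) and that of Aurkb/Incenp −0.49. Without both doubted arrays Bub1/Bub3, Bub1b/Bub3, Aurkb/Incenp and Birc5/Incenp had −2.44, −2.95, −0.95 and −1.16, where the smaller design cannot pass. With single arrays left out, which also cannot pass, they ran from −2.95 to −2.54, −3.21 to −2.47, −1.16 to −0.85 and −1.22 to −1.01. Cdca8/Incenp ran from −0.62 to −0.41 and had −2.04 with the mean of all probe sets, and Aurkb/Aurka ran from −0.74 to −0.33 and had −1.21 with that mean and −0.16 without both doubted arrays. Aurkb/Incenp had −1.67 with that mean, which takes in probe sets of Incenp and Aurka near or under the constant. By the strongest probe set or the mean of all, no log2 fold change of the 10 genes changed direction in the settings run. This holds in the average and within each growth factor. Weak probe sets of Aurka and Bub3, fitted singly, had 0.04 and 0.34 in the average. Median centring moved the median of all genes in the average to −0.10, and relative to this median Bub3 had −0.48 (−0.48 also as reported). Weak signals limit the size of falls of Aurkb and Bub1b.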
